A study of Mus musculus with 6 samples.

Results

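Expression of the Wnt pathway was examined in cochlea from *Cmah*-null and WT mice through 52 genes, chosen by symbol alone out of 18138 gene symbols on the array. They were the numbered Wnt, Fzd (frizzled), Sfrp, Dkk and Dvl genes, *Porcn*, and a short list of co-receptors, inhibitors and intracellular effectors. Each gene was read from its brightest probe among the 75 probes for these symbols. The members were 19 Wnt ligands, 11 receptors (9 frizzled genes with *Lrp5* and *Lrp6*), 9 secreted inhibitors, 12 intracellular effectors and *Porcn*. *Axin1* and *Tcf7l1* were not matched to a probe here.

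The samples were cochlear tissues of 3 WT and 3 *Cmah*-null mice, all 12 months old and of strain C57BL/6 (C57BL/6J in the study's methods), with 1 Illumina MouseRef-8 v2 array each and no treatment in either group. *Cmah* encodes the hydroxylase that makes the sialic acid Neu5Gc, and the null mice carry the knockout allele *Cmah* tm1Ykoz. The values are log2 signals after quantile normalization, and a difference is always *Cmah*-null minus WT. The probe for *Cmah* read 7.27, 7.28 and 7.87 in WT and 7.95, 7.98 and 7.27 in *Cmah*-null mice, and was detected on 1 WT and 2 *Cmah*-null arrays. The groups overlapped, and where the probe lies relative to the deleted part is not given in the sources used here, so it could not serve as a check of the genotype labels.

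Wnt proteins are secreted ligands that carry a lipid, which Porcn adds in the endoplasmic reticulum. They bind a frizzled receptor together with the co-receptor Lrp5 or Lrp6, and the signal passes through dishevelled (Dvl) to a complex of Apc, Axin and Gsk3b that otherwise marks beta-catenin (*Ctnnb1*) for destruction. Beta-catenin that escapes this joins Tcf and Lef factors at target genes, among them *Axin2*, which feeds back on the pathway. Sfrp proteins and Wif1 bind the ligands outside the cell, and Dkk1 blocks the co-receptors. In the developing inner ear the pathway acts on the growth of the prosensory epithelium, and frizzled proteins take part in orienting hair bundles.

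In these samples 42 of the 52 members were higher in *Cmah*-null mice and 10 were lower, where 53.1% of all symbols were higher. Both the ligands (16 of 19 higher) and the inhibitors with the effectors (17 of 21 higher) leaned the same way. Without *Cmah*-null replicate 3, however, the median log2 difference was 0.17 for the ligands and only 0.035 for the inhibitors with the effectors. The differences were small beside the spread between arrays, and no member passed an adjusted p of 0.05 in limma. The largest were those of *Wnt10a*, *Fzd10*, *Wnt4*, *Wnt6*, *Wnt7b* and *Axin2*, each at least 1.5-fold higher, and the values of *Cmah*-null replicate 3 weighed heavily in most of them.

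*Wnt4* was the only one of the 26 members detected on all 6 arrays whose groups did not overlap. Of the 9907 symbols so detected, 1198 lay wholly above WT and 736 wholly below. *Wnt4* was read by 2 probes of 50 bases. Their sequences are shown because both probes separated the genotypes. The brighter probe starts at base 659 of its transcript and the other at base 512, and the gene lies in band 4qD3.
*Wnt4* probe at 659: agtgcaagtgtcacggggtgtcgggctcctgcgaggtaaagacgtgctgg
*Wnt4* probe at 512: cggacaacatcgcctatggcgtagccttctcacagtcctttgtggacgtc

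The promoters of *Wnt4* and *Axin2* are shown as those of a ligand that separated the groups and of a feedback gene of the pathway. They were taken from RefSeq (GRCm38.p6), 250 bases before to 50 after the start of the gene, with every CG in capitals. An entry was matched for 36 of the 52 members, and *Wnt7b* and *Wnt10a* were not among them.
*Wnt4*, chr4:137277385-137277684, plus strand: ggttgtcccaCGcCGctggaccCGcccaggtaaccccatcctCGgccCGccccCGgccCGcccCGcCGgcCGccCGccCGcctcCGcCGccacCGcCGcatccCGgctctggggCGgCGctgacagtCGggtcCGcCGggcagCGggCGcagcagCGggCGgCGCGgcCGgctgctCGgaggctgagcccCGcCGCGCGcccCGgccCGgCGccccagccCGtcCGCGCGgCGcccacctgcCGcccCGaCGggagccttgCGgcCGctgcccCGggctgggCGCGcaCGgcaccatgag
*Axin2*, chr11:108920099-108920398, plus strand: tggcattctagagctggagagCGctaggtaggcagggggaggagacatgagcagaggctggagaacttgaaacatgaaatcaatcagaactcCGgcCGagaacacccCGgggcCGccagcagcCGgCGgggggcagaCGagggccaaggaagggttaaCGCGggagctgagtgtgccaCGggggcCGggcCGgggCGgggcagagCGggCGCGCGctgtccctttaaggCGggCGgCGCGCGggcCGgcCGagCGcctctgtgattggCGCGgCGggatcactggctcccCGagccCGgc
The *Wnt4* promoter holds 51 CG pairs and the *Axin2* promoter 31. As many are held by 0.715% and 10.6% of the 32851 promoters, respectively. The median was 25.0 over the 45 promoters of members and 7.0 over all promoters. Words that Tcf and Lef factors are known to bind were looked for on both strands. The word CTTTGAT is in 3.73% of all promoters and in 2 of the 45 of members. The word CTTTGAA is in 5.14% and in 1 of the members, and the word CTTTGTT is in 5.85% and in 4 of the members. Finally, CTTTGTA is in 3.63% of all promoters and in 1 of the members. The words are alike in their first 5 letters, so no match counts for more than one of them. At least 1 of them is in 16.9% of all promoters and in 7 of the 45 of members, and none is in the *Wnt4* and *Axin2* windows. A match or its lack describes these letters only.

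A probe was called detected at a detection p under 0.05 against negative controls on the array. By this rule 26 members were detected on all 6 arrays, 12 on 3 to 5, *Lef1* on 1, and 13 on none. The 13 were *Wnt1*, *Wnt2b*, *Wnt8a*, *Wnt8b*, *Wnt9a*, *Wnt9b*, *Wnt10b*, *Wnt11*, *Dkk1*, *Dkk2*, *Dkk4*, *Dvl2* and *Dvl3*, which were not above background on any array and are given no fold. Among the ligands 7 of 19 were detected on all arrays, against 7 of 11 receptors, 4 of 9 secreted inhibitors and 7 of 12 effectors. *Porcn* was also detected on all arrays and read from 10.70 to 10.93, with a difference of 0.07 (SE 0.08).

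The arrays themselves differed in ways that touch these values. *Cmah*-null replicates 1 and 2 were nearly alike (SD of their log2 difference 0.13, against 0.31 to 0.64 for all other pairs), and *Cmah*-null replicate 3 stood farthest from the rest. The labels list the former as 2 samples without saying that they came from separate animals, and every SE and p-value here counts them as 2. Probes were read from a median of 32 to 34 beads in WT replicate 1 and the first 2 *Cmah*-null replicates, and from 38 or 39 beads in the remaining 3 samples, so each set held both genotypes. Of 8 hair cell markers, *Myo7a*, *Otof* and *Gfi1* were detected on all arrays, *Slc17a8* on 5 and *Cdh23* on 1. *Pou4f3*, *Slc26a5* and *Atoh1* were not detected on any array. Of 12 markers of cochlear supporting and otic tissue, 8 were detected on all. Of the 11 epidermal markers 9 were found, 8 of them detected on all arrays and *Dsg1a* on none. Their summed signal was 31710, 44099 and 119087 in WT replicates 1 to 3 and 101791 to 112351 in *Cmah*-null mice. The 6 markers of brain coverings and choroid plexus summed to 31181 to 79066 in WT and 89108 to 97646 in *Cmah*-null mice, and the 8 of brown fat to 50272 to 67066 and 9073 to 29985. Bone and cartilage markers summed to 107813, 114720 and 26808 in WT replicates 1 to 3 and 40544 to 42839 in *Cmah*-null mice, and skeletal muscle markers to 319469, 328775 and 207670 and 217432 to 236331. In bulk tissue, fewer cells of a type and less RNA per cell cannot be told apart.

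The first question was which members differed between the genotypes. At an unadjusted p under 0.05 in limma, 3 members were higher (*Wnt3*, *Wnt4* and *Wnt11*) and 0 lower, and the same was true of 5.58% and 3.49% of all symbols. The groups did not overlap for 6 members, all with *Cmah*-null above WT (*Wnt3*, *Wnt4*, *Wnt9b*, *Wnt10b*, *Wnt11* and *Nkd1*), and for 10% of all symbols in this direction and 6.67% in the other. Of these members, *Wnt9b*, *Wnt10b* and *Wnt11* were not above background on any array. *Wnt3* and *Nkd1* were detected on 1 WT array and all *Cmah*-null arrays. At least 1.5-fold higher were 6 members and at least 1.5-fold lower 0, against 3.34% and 3.48% of all symbols. The counts by p and by overlap were thus near those of the array as a whole, and the lowest adjusted p of a member in limma was 0.509. The count by p was 6 without WT replicate 1, 0 without WT replicate 2 and 7 without WT replicate 3.

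**Figure D1:**
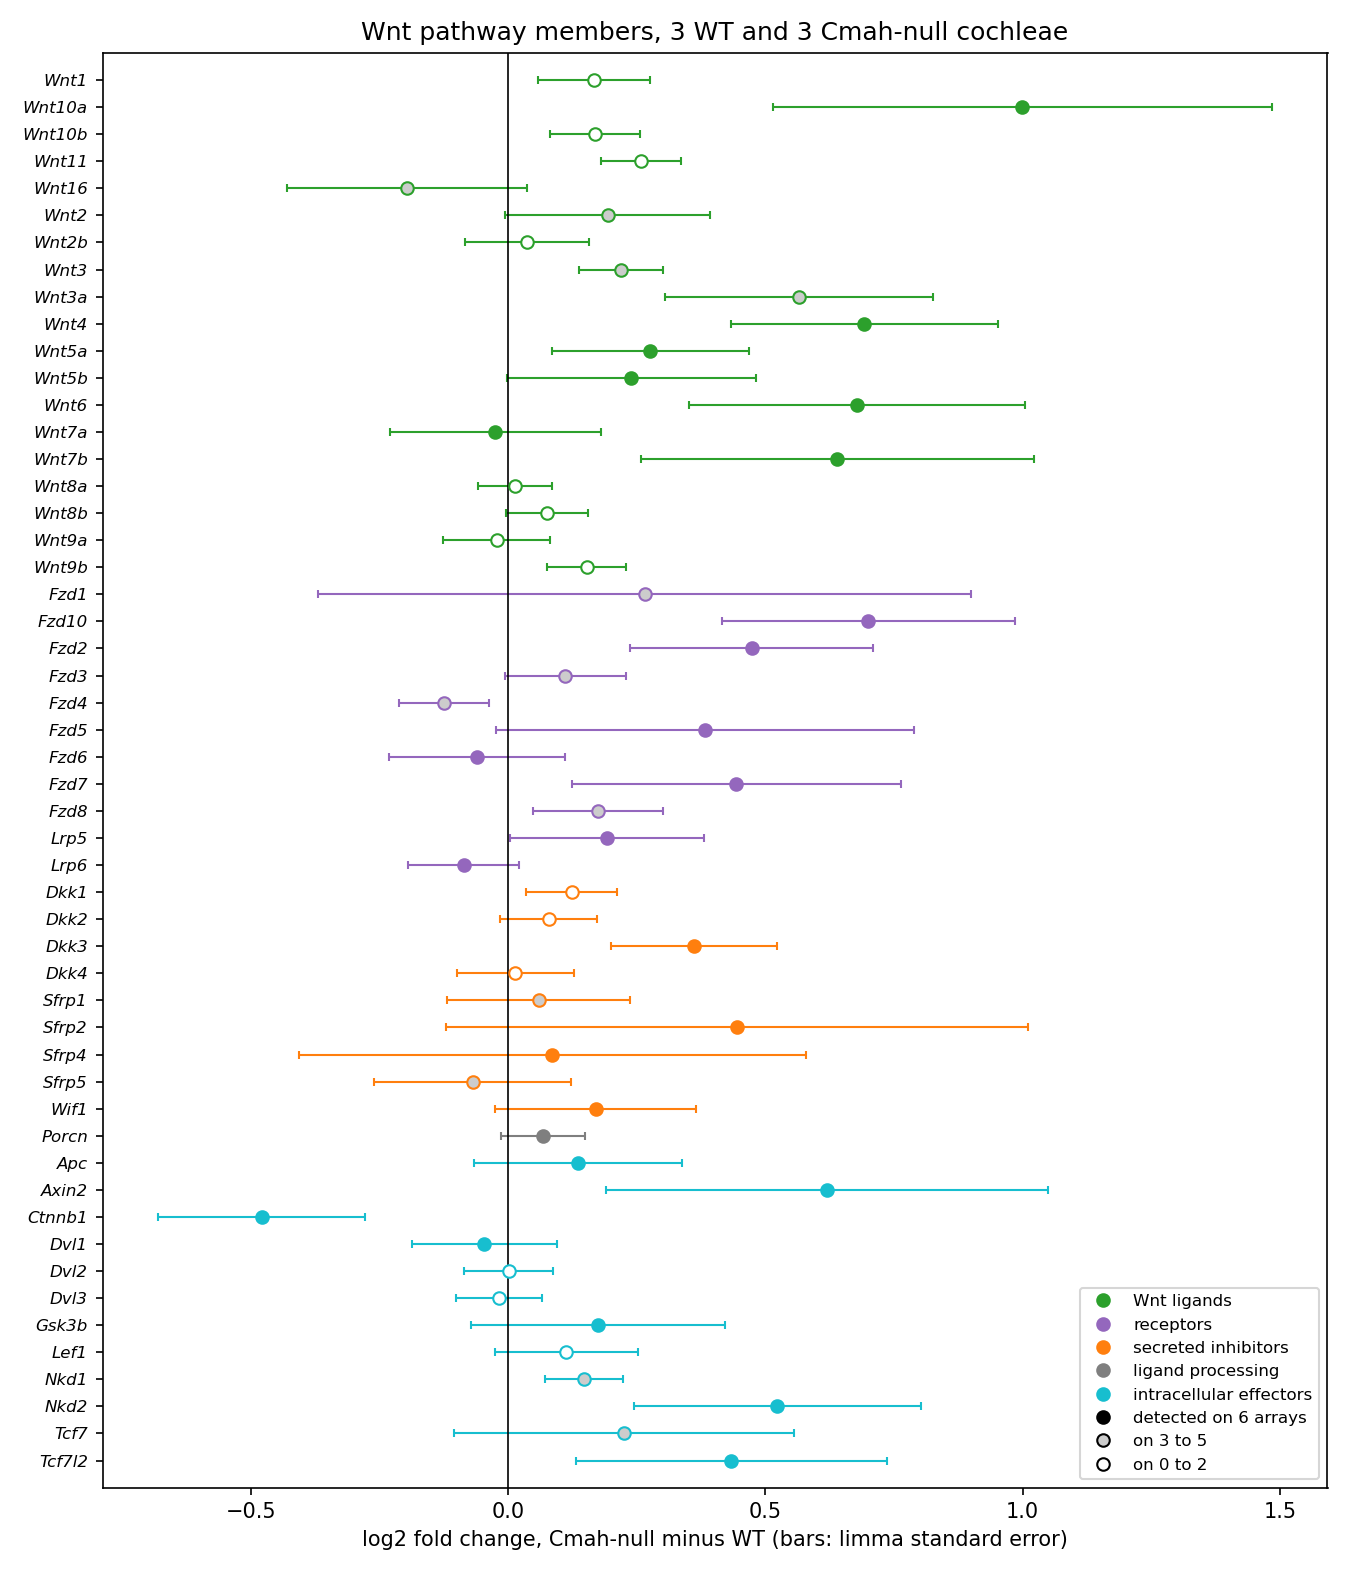
Log2 fold change (*Cmah*-null minus WT) of the 52 members, 1 row per gene, coloured by role, with bars for the standard error in limma; filled points were detected on 6 arrays, grey on 3 to 5 and open on 0 to 2. Points to the right of 0 number 42, *Wnt10a* lies farthest right at 1.00 and *Ctnnb1* farthest left at -0.48.

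Among the ligands, *Wnt4* read 8.33, 8.25 and 8.39 in WT and 8.71, 8.73 and 9.62 in *Cmah*-null replicates 1 to 3. All 3 *Cmah*-null values lay above all WT values, and replicate 3 lay well above the other two. The log2 difference was 0.69 (SE 0.26, limma unadjusted p = 0.0377, adjusted p = 0.569), and 0.39 without *Cmah*-null replicate 3. The second *Wnt4* probe read 7.69, 7.71 and 7.65 in WT and 8.08, 7.94 and 8.25 in *Cmah*-null mice, again without overlap, for a difference of 0.40 (SE 0.10). *Wnt4* is a ligand known for its role in the kidney and the female reproductive tract.

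*Wnt10a*, a ligand of skin and teeth, read 7.56, 7.89 and 8.78 in WT and 8.70, 8.55 and 9.98 in *Cmah*-null mice. The groups overlapped through WT replicate 3. Its difference was 1.00 (SE 0.48, limma adjusted p = 0.631), and 0.55 without *Cmah*-null replicate 3. *Wnt6*, an epithelial ligand whose gene adjoins *Wnt10a* on chromosome 1 (both in band 1qC3), read 8.46, 8.47 and 8.84 in WT and 8.98, 8.83 and 9.996 in *Cmah*-null mice. *Cmah*-null replicate 2 and WT replicate 3 differed by less than 0.05, the only overlap. The difference of *Wnt6* was 0.68 (SE 0.33, limma adjusted p = 0.630), and 0.32 without *Cmah*-null replicate 3. *Wnt7b*, a ligand of skin and lung epithelium, read 8.47, 9.07 and 9.72 in WT and 9.45, 9.46 and 10.28 in *Cmah*-null mice. WT replicate 3 lay above *Cmah*-null replicates 1 and 2. The difference was 0.64 (SE 0.38), and 0.37 without *Cmah*-null replicate 3 or 0.33 without WT replicate 1, while a second *Wnt7b* probe, detected on 1 array, gave -0.01 (SE 0.10).

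*Wnt3a*, the ligand most used to start beta-catenin signalling in culture, read 7.53, 7.40 and 8.18 in WT and 8.19, 7.99 and 8.62 in *Cmah*-null mice, and was detected on 2 WT arrays and all *Cmah*-null arrays. Its WT replicate 3 again reached the *Cmah*-null values. The difference was 0.57 (SE 0.26, limma adjusted p = 0.624). *Wnt5a*, which acts mostly without beta-catenin and steers planar polarity in the cochlea, read 10.53, 10.08 and 9.87 in WT and 10.34, 10.33 and 10.63 in *Cmah*-null mice. Here WT replicate 1 was among the highest arrays, and the difference of 0.28 (SE 0.19) turned to -0.19 within the arrays with fewer beads. *Wnt3* read 7.48, 7.36 and 7.31 in WT and 7.54, 7.68 and 7.59 in *Cmah*-null mice, and was detected on 1 WT array and all *Cmah*-null arrays. These groups did not overlap, but the gap between them was small (difference 0.22, SE 0.08, limma adjusted p = 0.569). *Wnt5b* and *Wnt7a* gave 0.24 (SE 0.24) and -0.02 (SE 0.21), *Wnt2* gave 0.19 (SE 0.20) and *Wnt16* gave -0.20 (SE 0.23). Besides *Wnt6* and *Wnt10a*, the neighbouring pairs among the members were *Wnt3* with *Wnt9b*, *Wnt3a* with *Wnt9a*, and *Wnt1* with *Wnt10b*. The second gene of each of these pairs was not above background on any array, nor was *Wnt1*.

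Among the receptors, *Fzd10* read 8.18, 8.48 and 9.04 in WT and 9.09, 9.01 and 9.71 in *Cmah*-null mice. Only WT replicate 3 entered the *Cmah*-null range. Its difference was 0.70 (SE 0.28, limma unadjusted p = 0.0503, adjusted p = 0.584), while 2 other *Fzd10* probes, detected on 2 arrays and none, gave -0.16 (SE 0.15) and 0.02 (SE 0.09). *Fzd5* and *Fzd7* were set apart by a single array. *Fzd5* was 10.997 in *Cmah*-null replicate 3 and 9.45 to 9.83 on the other 5 arrays, and *Fzd7* was 11.79 there and 10.48 to 10.69 elsewhere. Their differences of 0.38 (SE 0.41) and 0.44 (SE 0.32) came to -0.08 and 0.07 without that array. *Fzd1* had the widest spread, from 7.41 to 9.70, with the highest value again in *Cmah*-null replicate 3 (difference 0.27, SE 0.63), and the difference was -0.41 without that array. *Fzd2* gave 0.47 (SE 0.24), or 0.22 without the same array, *Fzd8* 0.18 (SE 0.13) and *Fzd3* 0.11 (SE 0.12). *Fzd6*, which with *Fzd3* orients hair bundles, gave -0.06 (SE 0.17), and *Fzd4* gave -0.12 (SE 0.09).

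The co-receptors were close to level. *Lrp5* read 7.76, 7.72 and 8.01 in WT and 7.87, 7.79 and 8.41 in *Cmah*-null mice, a difference of 0.19 (SE 0.19) that came to -0.0014 without *Cmah*-null replicate 3. *Lrp6* read 7.77, 7.55 and 7.83 in WT and 7.58, 7.56 and 7.76 in *Cmah*-null mice, a difference of -0.09 (SE 0.11) that was 0.070 within the arrays with more beads. In both the groups overlapped.

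None of the 9 secreted inhibitors reached 1.5-fold or separated the groups. *Sfrp2*, a soluble frizzled-like protein that binds Wnt ligands, read 8.81, 10.19 and 10.26 in WT and 9.79, 9.64 and 11.17 in *Cmah*-null mice. WT replicate 1 was the lowest array and *Cmah*-null replicate 3 the highest, and the difference was 0.45 (SE 0.57). Without *Cmah*-null replicate 3 it was -0.039. *Sfrp4* was likewise lowest in WT replicate 1 (7.54, against 8.32 to 9.28 elsewhere), with a difference of 0.09 (SE 0.49). *Dkk3*, a divergent member of the Dickkopf family, gave 0.36 (SE 0.16) by its brightest probe, or 0.23 without *Cmah*-null replicate 3, and 0.05 (SE 0.16) by another that was also detected on all arrays. *Wif1* gave 0.17 (SE 0.20), *Sfrp1* 0.06 (SE 0.18) and *Sfrp5* -0.07 (SE 0.19).

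Among the intracellular effectors, *Axin2* read 9.61, 9.46 and 9.81 in WT and 9.73, 9.76 and 11.25 in *Cmah*-null mice. *Cmah*-null replicates 1 and 2 lay within the WT range and replicate 3 far above it. The difference was 0.62 (SE 0.43, limma adjusted p = 0.722), and 0.12 without that array. *Tcf7l2*, a nuclear partner of beta-catenin, had the same shape, with 10.41 in *Cmah*-null replicate 3 and 9.18 to 9.51 elsewhere (difference 0.43, SE 0.30, and 0.095 without that array). *Nkd2*, whose protein binds dishevelled and dampens the signal, read 8.56, 9.17 and 9.57 in WT and 9.51, 9.45 and 9.91 in *Cmah*-null mice. Its WT replicate 3 lay among the *Cmah*-null values, and the difference was 0.52 (SE 0.28). *Nkd1* read 7.51, 7.42 and 7.36 in WT and 7.54, 7.55 and 7.63 in *Cmah*-null mice, and was detected on 1 WT array and all *Cmah*-null arrays. The groups did not overlap by a gap of less than 0.05, and the difference was 0.15 (SE 0.08).

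*Ctnnb1* had the largest difference below 0 among the members. Its brightest probe read 12.82, 13.45 and 13.48 in WT and 12.93, 12.69 and 12.69 in *Cmah*-null mice, so WT replicate 1 lay with the *Cmah*-null arrays. The difference was -0.48 (SE 0.20, limma unadjusted p = 0.0560, adjusted p = 0.595), but it was 0.028 when raw signals were scaled to one median instead of quantile normalized. That scaling moved the median difference of all probes detected on 6 arrays from 0.03 to 0.30, and relative to this median *Ctnnb1* was below it under both. The other *Ctnnb1* probe detected on all arrays gave -0.31 (SE 0.15). *Gsk3b*, the kinase of the destruction complex, read 9.42, 9.71 and 10.05 in WT and 9.58, 9.79 and 10.34 in *Cmah*-null mice. The groups overlapped almost wholly, and the difference of 0.17 (SE 0.25) was -0.041 without *Cmah*-null replicate 3 and 0.022 without WT replicate 1. *Tcf7* gave 0.23 (SE 0.33), *Apc* 0.14 (SE 0.20) and *Dvl1* -0.05 (SE 0.14).

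**Figure D2:**
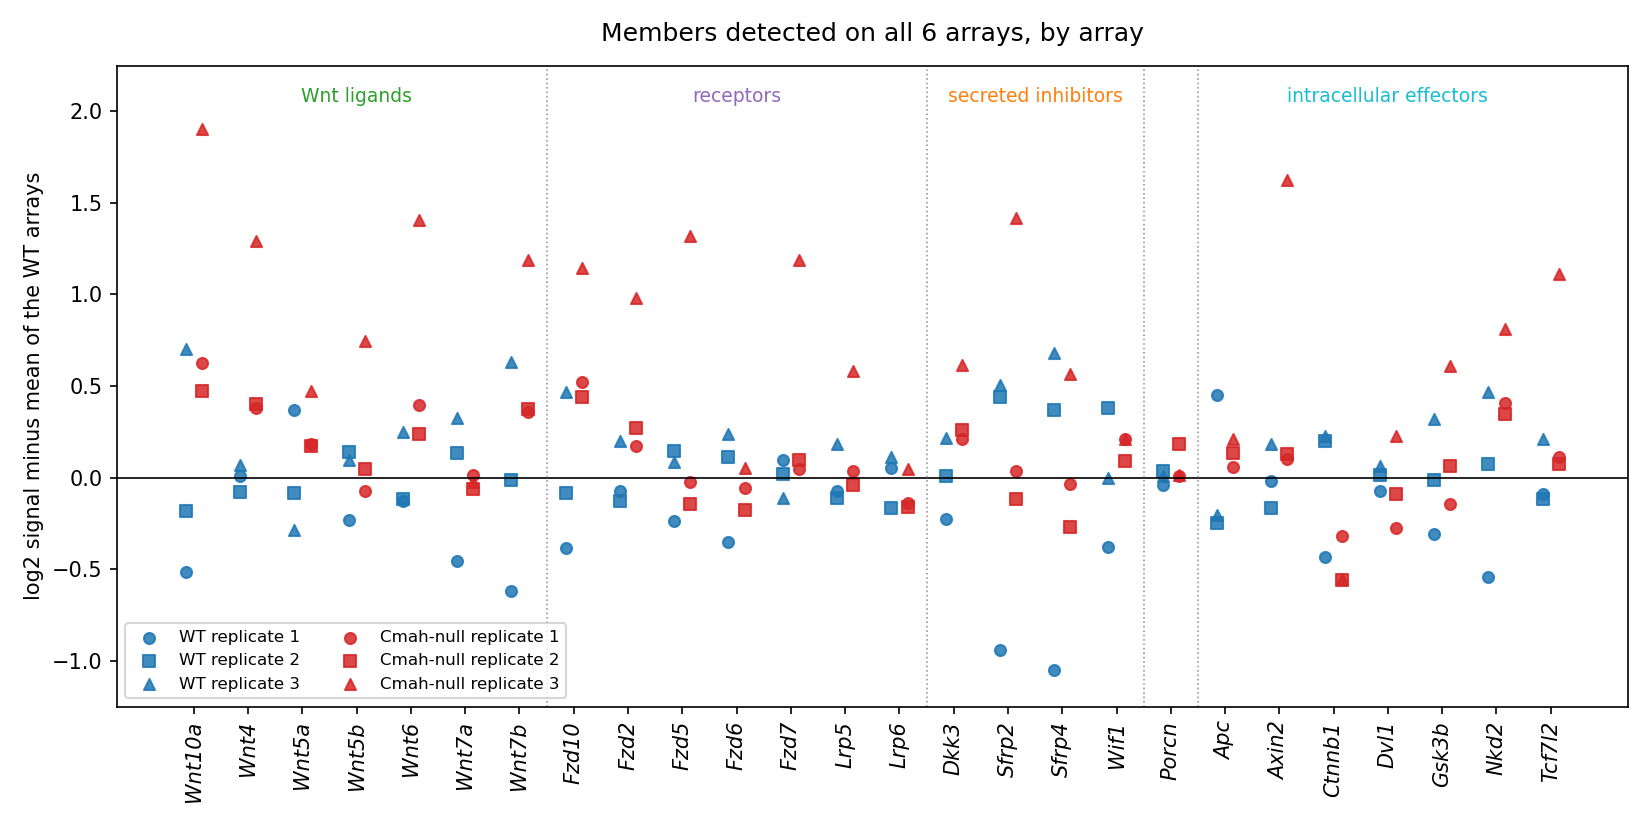
Log2 signal of the 26 members detected on all arrays, each minus its mean over the WT arrays, 1 point per array (blue, WT; red, *Cmah*-null; circle, square and triangle, replicates 1 to 3), grouped by role. The red triangle, *Cmah*-null replicate 3, is the highest point for 18 of the 26 members.

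The second question was whether inhibitors and effectors differed from ligands. The median log2 difference was 0.19 over the 19 ligands, 0.19 over the 11 receptors, 0.09 over the 9 secreted inhibitors and 0.14 over the 12 effectors, beside 0.01 over all symbols. For inhibitors and effectors together it was 0.12. Without *Cmah*-null replicate 3 it was 0.17 for the ligands, -0.0014 for the receptors and 0.035 for inhibitors and effectors. These medians take in the 13 members not above background on any array. Over the members detected on all 6 arrays the medians were 0.64 for 7 ligands and 0.38 for 7 receptors. They were 0.27 for 4 secreted inhibitors and 0.18 for 7 effectors, beside 0.04 over all symbols so detected. Without *Cmah*-null replicate 3 these medians were 0.32, -0.0014, 0.056 and 0.095 in the same order, beside 0.038. Each of these is a description of few genes, and no test was made between the roles.

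The roles were also compared by array. Averaged over the 19 ligands, *Cmah*-null replicates 1, 2 and 3 lay 0.18, 0.14 and 0.49 above the WT mean. Averaged over the 21 inhibitors and effectors, they lay 0.0038, 0.022 and 0.42 above it. The ligand mean was thus above 0.1 on all 3 *Cmah*-null arrays, and that of the inhibitors and effectors on 1. The receptors resembled the latter, at 0.024, 0.0034 and 0.65. WT replicates 1, 2 and 3 lay at -0.11, 0.0007 and 0.11 for the ligands and at -0.14, 0.022 and 0.12 for the inhibitors and effectors. The ligand means of *Cmah*-null replicates 1 and 2 thus exceeded that of WT replicate 3 by less than 0.1. The 19 ligands take in 8 not above background on any array. Over the 7 ligands detected on all arrays, the WT arrays lay at -0.23, -0.029 and 0.25 and the *Cmah*-null arrays at 0.27, 0.24 and 0.997. *Cmah*-null replicate 2 was there below WT replicate 3. The 4 secreted inhibitors so detected lay at 0.11, -0.0091 and 0.70 in *Cmah*-null mice, and the 7 effectors at -0.0076, 0.015 and 0.58. *Cmah*-null replicate 3 was the highest array for 29 of the 52 members (55.8%) and for 32.1% of all symbols.

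Since the 2 sets of arrays with fewer and with more beads each held both genotypes, the difference was also taken within each. It was above 0 in both sets for 31 of the 52 members and below 0 in both for 3, whereas 30.3% of all symbols were above 0 in both. By role, both sets were above 0 for 13 of 19 ligands, 6 of 11 receptors, 6 of 9 secreted inhibitors and 6 of 12 effectors. *Wnt10a* gave 1.06 and 1.64 (fewer, then more beads), *Wnt7b* 0.99 and 0.88, *Fzd10* 0.87 and 0.95, *Sfrp2* 0.90 and 0.94, *Nkd2* 0.92 and 0.54, and *Wnt3a* 0.56 and 0.83. No other member was above 0.5 in both sets. With fewer beads WT replicate 1 is the only WT array, and it was the lowest of all arrays for each of these genes but *Wnt3a*. *Wnt4* gave 0.39 and 1.30, *Wnt6* 0.44 and 1.34, and *Axin2* 0.14 and 1.61, larger where *Cmah*-null replicate 3 is the only *Cmah*-null array. *Ctnnb1* gave -0.01 and -0.77. With the set as a block in limma, 16 of the 52 members had an unadjusted p under 0.05, all of them higher. The share of all symbols was 18.6%, counted in either direction.

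**Figure D3:**
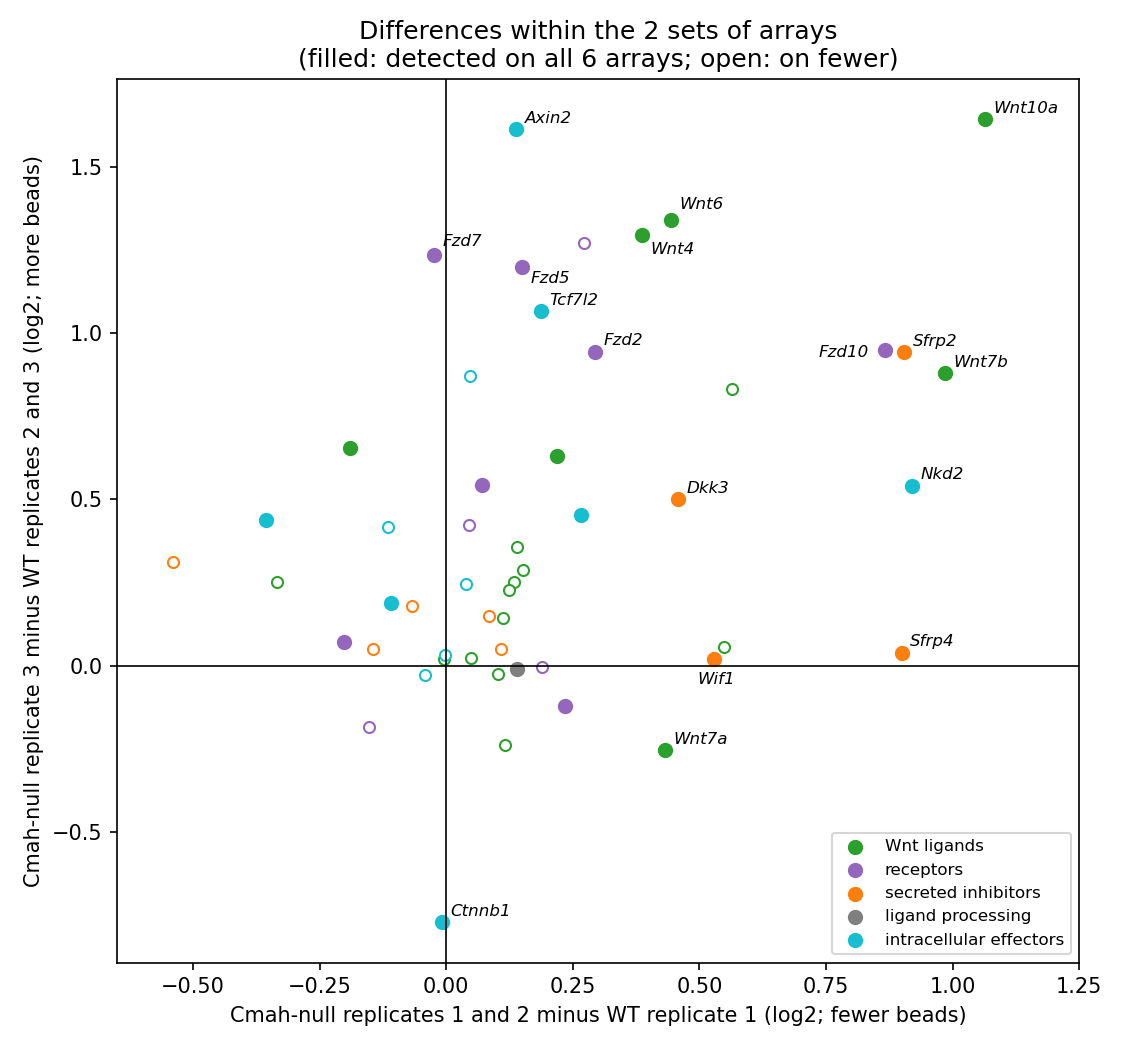
Log2 difference of each member (*Cmah*-null minus WT) within the arrays with fewer beads (horizontal) and within those with more beads (vertical), coloured by role, filled where detected on all 6 arrays. The upper right quadrant holds 31 of the 52 members; *Wnt10a* lies at 1.06 and 1.64, *Axin2* at 0.14 and 1.61, and *Ctnnb1* at -0.01 and -0.77.

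Several members shared the split of the WT arrays seen in the epidermal markers. *Wnt10a*, *Wnt7b*, *Wnt3a*, *Fzd10* and *Nkd2* were each lower in WT replicates 1 and 2 than in WT replicate 3, and WT replicate 3 lay near or within the *Cmah*-null values. The summed epidermal signal was likewise highest among WT arrays in replicate 3, which lay above every *Cmah*-null array, and the bone and muscle sums given above were lowest there. Among the *Cmah*-null arrays the match ended. All 5 members were highest in *Cmah*-null replicate 3, while the epidermal sum there (112351) was close to that of *Cmah*-null replicates 1 and 2 (104682 and 101791), and single markers went both ways. *Krt14* and *Lgals7* were lower in *Cmah*-null replicate 3 than in replicates 1 and 2 (14.69 against 15.60 and 15.42, and 10.35 against 11.44 and 11.43), whereas *Krt10* was higher (14.85 against 13.67 and 13.77). *Wnt4* did not share the split in WT, since WT replicate 3 (8.39) lay with the other WT arrays and below all *Cmah*-null arrays. The summed markers of brain coverings and choroid plexus were likewise higher on all *Cmah*-null arrays (89108 to 97646) than on all WT arrays (31181 to 79066). Those of brown fat were lower on all *Cmah*-null arrays (9073 to 29985 against 50272 to 67066). The part of epidermal, bone, muscle or other tissue in the values of *Wnt4*, *Wnt10a*, *Wnt7b*, *Wnt3a*, *Fzd10* and *Nkd2* was not tested.

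**Figure D4:**
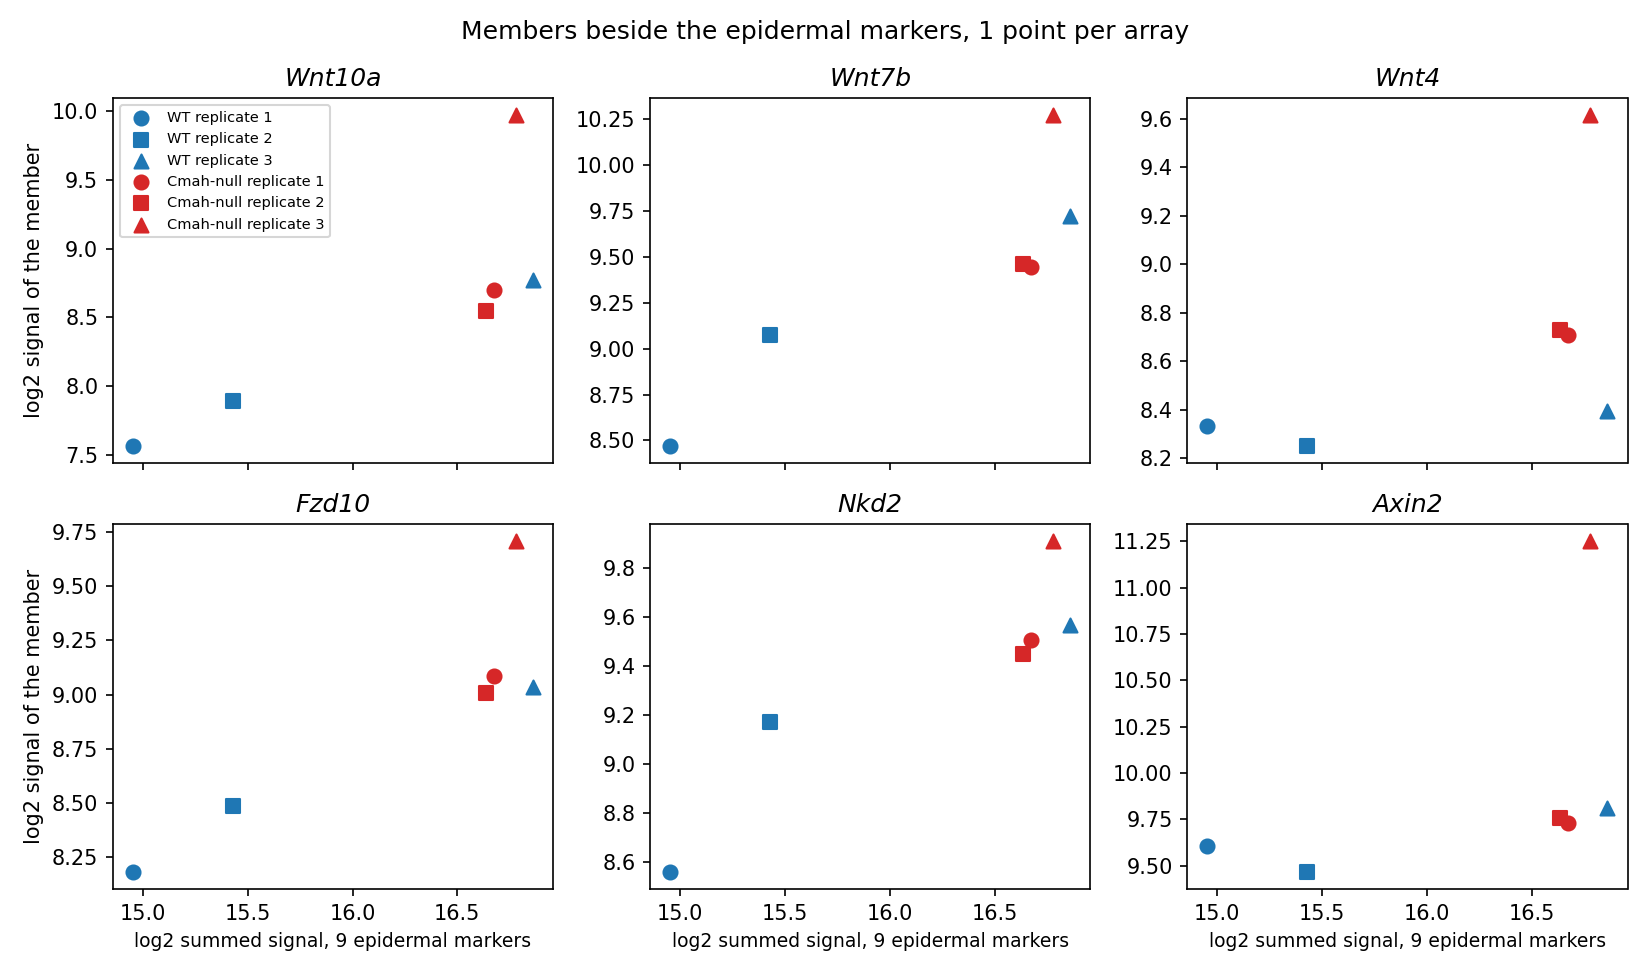
Log2 signal of 6 members (vertical) against the log2 of the summed signal of 9 epidermal markers (horizontal), 1 point per array (blue, WT; red, *Cmah*-null). WT replicate 3, the blue triangle, lies to the right among the *Cmah*-null arrays (summed signal 119087) and at their height for *Wnt10a*, *Wnt7b*, *Fzd10* and *Nkd2*, but below them for *Wnt4* (8.39).

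Beyond the members, 89 further genes of the pathway and of its known targets were found on the array. Of these, 11 were higher and 1 lower at an unadjusted p under 0.05 in limma, and 16 lay wholly above and 3 wholly below WT, to be read against the shares of all symbols given above. Their median difference was 0.12, and *Cmah*-null replicate 3 was the highest array for 50 of the 89. None passed an adjusted p of 0.05, the lowest being 0.397 for *Ccnd1*.

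*Ccnd1*, the cyclin that starts the cell cycle, read 11.84, 12.13 and 12.16 in WT and 12.59, 12.61 and 12.66 in *Cmah*-null mice. The *Cmah*-null values were tight and all above WT, with a difference of 0.57 (SE 0.11). Only the brightest of its 3 probes was read, and likewise for *Btrc*, *Prkx* and *Tle4* (3 probes each) and *Tle1* (4 probes) below. *Sostdc1*, a secreted inhibitor of Wnt and BMP signals, read 9.04, 9.10 and 9.10 in WT and 9.92, 9.79 and 11.34 in *Cmah*-null mice. Its difference of 1.27 (SE 0.42, limma adjusted p = 0.535) was larger than that of any of the 9 inhibitors among the members, and was 0.78 without *Cmah*-null replicate 3. *Gpr177* (also called *Wls*), which carries Wnt ligands to the cell surface, read 10.13, 10.28 and 10.43 in WT and 10.83, 10.55 and 10.68 in *Cmah*-null mice, a difference of 0.41 (SE 0.12). *Notum*, an enzyme that removes the lipid from Wnt ligands, gave 0.38 (SE 0.24), or 0.11 without that array.

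Others among the 10 largest differences without overlap were *Btrc*, the part of the ubiquitin ligase that recognises marked beta-catenin, with 0.63 (SE 0.15), and *Prkx*, a protein kinase, with 0.64 (SE 0.18). *Tle1* and *Tle4*, co-repressors that bind Tcf factors, gave 0.60 (SE 0.30) and 0.41 (SE 0.14), the former 0.27 without *Cmah*-null replicate 3. *Bmp4*, a growth factor of the TGF-beta family, gave 0.80 (SE 0.31), or 0.45 without it. *Plcb4*, a phospholipase, was the largest of the 3 genes wholly below WT, with -0.48 (SE 0.23), or -0.29 without *Cmah*-null replicate 3. *Btrc*, *Prkx*, *Ccnd1*, *Gpr177* and *Tle4* kept a difference of 0.32 or more within both bead sets, as did *Sostdc1*, *Bmp4* and *Tle1*. For these last the difference was larger with more beads. *Sostdc1* gave 0.81 with fewer beads and 2.24 with more, *Bmp4* 0.47 and 1.49, and *Tle1* 0.44 and 1.19.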

How the data were processed

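Total RNA of cochlear tissues from 3 WT and 3 *Cmah*-null mice was hybridized to 1 Illumina array each. The authors deposited raw intensity (average bead signal, not background-corrected), the bead count and a detection p-value of every probe. A second deposited table gave the authors' quantile-normalized log2 values, which equalled log2 raw signals after quantile normalization to within 5e-07. It named the second group "old", and its columns were matched to *Cmah*-null samples by elimination and number. The authors' fold changes and p-values in it were not used.

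Genotypes were compared on the log2 scale by a two-sided limma test (version 3.58.1, R 4.3.3) without covariates, and p-values were adjusted by Benjamini-Hochberg across the 25697 probes. The code was tested on simulated data. Counts used 1 probe per symbol, the brightest. P-values measure only the spread between these samples. Detected probes numbered 13873 to 15223 per array, and the number of arrays limits the precision. Members, lists and tests were chosen with earlier results of these data known. Members detected on at least 3 arrays were named with values. In full were given those detected on every array of either genotype that were apart between groups or at least 1.5-fold different, with *Lrp5*, *Lrp6*, *Wnt3a*, *Wnt5a*, *Gsk3b*, *Ctnnb1* and *Axin2*. The 10 largest separated genes were named from the other lists. Other genes were chosen after their values were seen. Alternatives were neqc (offset 16), median scaling, a filter on dim probes, blocks for replicate number and bead set, each bead set alone, each array left out, *Cmah*-null replicates 1 and 2 averaged, a trended robust prior and the mean over probes. Plots came from Python 3.11.15 (matplotlib 3.10.9).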

Additional observations from a re-analysis of the deposited data

How the results depend on the processing

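The limits of these values lie in the number of arrays and in their differences. No probe passed an adjusted p of 0.05 in limma, while 1227 were higher and 972 lower at an unadjusted p under 0.05. With the bead set as a block 3 probes passed, and within the arrays with fewer and with more beads alone 6394 and 2666 did. Those last counts rest on 1 residual degree of freedom among 3 arrays. In the first of these sets it comes from the nearly alike *Cmah*-null replicates 1 and 2, and in the other *Cmah*-null replicate 3 is the lone sample and is assumed to vary like WT.

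The 3 members at an unadjusted p under 0.05 in limma became 6 with neqc and 6 with the trended robust prior (9.32% and 7.62% of all symbols). They became 17 with median scaling (16.4%) and 16 with the bead block (18.6%). When 1 array was left out they were 0 to 7, beside 5.04% to 14.3% of all symbols. The 0 came without WT replicate 2, the 6 and 7 without WT replicates 1 and 3. With the replicate block they were 10 (9.15% of all symbols). The replicate numbers only name samples here, as deviations from group means correlated at 0.03, -0.18 and 0.03 between same-numbered WT and *Cmah*-null arrays. The 6 members without overlap became 21 with median scaling (18.5% of all symbols) and 14 with *Cmah*-null replicates 1 and 2 averaged (22.5%). Of the 38 members that passed the filter on dim probes 3 were without overlap, beside 19.0% of the symbols that passed. *Wnt3* and *Nkd1*, both among them, passed it through the *Cmah*-null arrays, where they are high. Within the bead sets 43 and 41 were without overlap (81.8% and 80.5%), and 10 to 20 when 1 array was left out (22.2% to 34.8%). Fewer arrays make overlap rarer there. Median scaling moved the median difference of probes detected on all arrays from 0.03 to 0.30.

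The ligand median was 0.37 with neqc and 0.28 with the filter on dim probes. The median of secreted inhibitors was 0.23 and that of effectors 0.31 with neqc. Within the arrays with more beads the medians of receptors and effectors were 0.54 and 0.43. When 1 array was left out, the median of secreted inhibitors ran from 0.069 to 0.18. The sign turned for *Ctnnb1* with median scaling (0.028, below the shifted median), for *Wnt5a* within the arrays with fewer beads (-0.19) and for *Lrp6* within those with more (0.070). When 1 array was left out, *Lrp5* ran from -0.0014 to 0.31 and *Gsk3b* from -0.041 to 0.34, in both cases lowest without *Cmah*-null replicate 3. The cause of these shifts was not tested. Of the 26 members detected on all arrays, 10 kept their sign under all 15 alternatives, all of them higher (*Wnt4*, *Wnt6*, *Wnt7b*, *Wnt10a*, *Fzd2*, *Fzd10*, *Dkk3*, *Axin2*, *Nkd2* and *Tcf7l2*). The share of all symbols that did so was not counted. The alternatives reuse the same 6 arrays, and median scaling by itself moves detected probes toward higher. Without *Cmah*-null replicate 3, another probe detected on all arrays gave -0.15 for *Tcf7l2* and -0.092 for *Dkk3*, but 0.33 for *Wnt4*.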
